A study of Homo sapiens with 2 samples.

Results

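The regions described here are the autosomal anchors that were joined with themselves in H3K27ac HiChIP of HCT116, an established human colorectal carcinoma cell line. An anchor is one of the fixed genomic intervals between which paired-end tags were counted, and a same-anchor count is the number of tags whose ends both lay in that interval. The rule took every row in which the first and the second anchor had the same coordinates, summed the counts of both replicates and divided by the width of the anchor in kb. Of 247256 autosomal anchors, 165877 (67.1%) had a same-anchor count in at least 1 replicate, 83806 (33.9%) in both and 81379 (32.9%) in neither. The latter were kept as 0 in all rates below. Both samples were untreated HCT116 cells labelled replicate 1 and replicate 2. They were 1 condition of 1 line, and the comparisons below are between anchors. The labels do not state whether they came from separate cultures, so the spread between them may be technical.

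H3K27ac is the acetylation of lysine 27 of histone H3, which marks active promoters and enhancers. In HiChIP, crosslinked chromatin is cut with a restriction enzyme, here MboI, the cut ends are ligated to nearby ends, and the ligated DNA that carries the mark is pulled down and sequenced from both ends. A tag between different anchors reports a contact between them. A tag that stays in 1 anchor can join neighbouring fragments. The paper states that HiC-Pro was used to obtain valid fragment pairs. Whether the same-anchor rows also hold unligated or self-ligated fragments is not given in the sources used here. Same-anchor counts are called local signal below without a decision between these.

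MboI cuts at GATC, a sequence that reads the same on both strands. All 247256 anchor ends and 247255 of the 247256 anchor starts lay at such a site, so anchors were taken as runs of MboI fragments, with a median of 7 fragments and a maximum of 79. The following sequences are shown because the counts described below moved with the number of these sites. They are the 300 bases with the most GATC sites in a promoter anchor (LINC02901) and in a non-promoter anchor (VMP1), both among the 4 anchors with the highest local signal, and 300 bases from the middle of the anchor with only 1 MboI fragment that had the most counts with other anchors. They are the plus strand of GRCh37, the build of the files, 5′ to 3′, and capitals mark the GATC sites.
LINC02901 window, chr6:159288170-159288469: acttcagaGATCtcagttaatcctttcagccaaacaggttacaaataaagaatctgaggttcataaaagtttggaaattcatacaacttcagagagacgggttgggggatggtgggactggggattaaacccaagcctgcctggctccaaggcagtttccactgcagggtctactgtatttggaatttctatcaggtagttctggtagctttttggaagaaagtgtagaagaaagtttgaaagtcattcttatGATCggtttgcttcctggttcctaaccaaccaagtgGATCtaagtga
VMP1 window, chr17:57905881-57906180: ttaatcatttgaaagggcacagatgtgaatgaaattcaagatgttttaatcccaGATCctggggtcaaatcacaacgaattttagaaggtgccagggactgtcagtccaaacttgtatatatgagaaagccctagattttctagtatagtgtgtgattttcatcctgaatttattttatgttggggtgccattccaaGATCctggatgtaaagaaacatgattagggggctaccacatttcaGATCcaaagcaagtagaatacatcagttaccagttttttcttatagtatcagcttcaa
1-fragment anchor window, chr6:6712362-6712661: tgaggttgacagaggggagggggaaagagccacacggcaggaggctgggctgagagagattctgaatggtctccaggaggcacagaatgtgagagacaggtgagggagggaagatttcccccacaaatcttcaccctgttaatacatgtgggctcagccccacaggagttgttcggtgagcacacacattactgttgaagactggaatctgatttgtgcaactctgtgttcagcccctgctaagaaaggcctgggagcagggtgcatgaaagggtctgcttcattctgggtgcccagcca

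The windows of LINC02901 and VMP1 held 3 sites each, and 67.8% of all autosomal anchors had a window with at least as many. The window of the 1-fragment anchor held none. The most GATC sites in any 300 bases had a median of 4 in the 2473 anchors with the highest local signal, 3 in all anchors and 2 in anchors without a same-anchor count. The median widths were 3475, 2547 and 2068 bases in the same order. Wider anchors hold more such windows, so these medians do not compare site density alone.

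Replicate 1 held 1885481 counts and replicate 2 held 2131466. The autosomal same-anchor counts were 299967 (16.0% of the autosomal counts) and 300024 (14.1%), so the local counts were almost equal at unequal depth. The pooled local signal was 0.374 counts per kb in each replicate. Summed over both, the median anchor had 0.478 counts per kb, the 90th percentile was 1.59, the 99th was 3.85 and the highest anchor had 50.1. The median same-anchor count was 1, and 10646 anchors (4.31%) reached a summed count of 10. Single anchors below this level have wide counting errors. All intervals below were computed from the counts and cover counting error only.

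The anchor with the highest local signal lay inside VMP1, which encodes a membrane protein of the endoplasmic reticulum that acts in autophagy, at chr17:57905285-57909255. It overlapped no exon of the canonical transcript and no promoter. It had 91 counts in replicate 1 and 108 in replicate 2, or 50.1 summed counts per kb (95% Poisson interval, 43.4 to 57.6). Both replicates placed it above all other anchors, and it held 20 MboI fragments. Anchors with 20 fragments had 9.13 summed counts on average, so its 199 counts were 21.8 times that level. Another intronic VMP1 anchor at chr17:57859952-57865626 was also among the 20 highest, with 50 and 40 counts.

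The highest promoter anchor held the start site of ZFP36, which encodes the mRNA-destabilising protein tristetraprolin, at chr19:39892829-39897951. Its same-anchor counts were 65 in replicate 1 and 95 in replicate 2, or 31.2 summed counts per kb. It followed the VMP1 anchor by summed counts per kb. The ZFP36 anchor had 58 and 64 counts with other anchors up to 2 Mb away, so same-anchor counts exceeded the others, at 131 same-anchor counts per 100 others. The average for all autosomal anchors was 11.8 per 100. This ratio moved with the number of MboI fragments, and anchors with 27 fragments, as here, had 26.5 in replicate 1 and 23.3 in replicate 2. A tag between different anchors counted for each of them, so this is not a ratio of tags.

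The third anchor lay within 2.5 kb of the start of MIR23AHG, the host gene of the microRNAs miR-23a, miR-27a and miR-24-2, at chr19:13956196-13966080. It had 136 and 144 counts, 28.3 summed counts per kb, and the highest summed same-anchor count of all autosomal anchors. LINC02901, a long non-coding RNA gene, had its start site in the next anchor, chr6:159286877-159292278, with 56 and 68 counts. Per kb, the values of the VMP1 anchor lay above those of the other 3 in both replicates, while MIR23AHG had more counts.

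Of the remaining 16 anchors among the 20 highest, 2 were at promoters. One held the start site of the long non-coding RNA gene ENSG00000287114 at chr17:16929979-16933034 and had 32 and 27 counts. The other held that of MYADM, a gene for a myeloid-associated membrane protein, at chr19:54368456-54372951, and had 38 and 39 counts. The replicates of both anchors were close to each other.

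Anchors inside genes but away from start sites made up most of the rest. In an intron of ACTN4, the gene of the actin crosslinker α-actinin-4, the anchor chr19:39172287-39178281 had 59 and 77 counts, and it also overlapped 1 exon of the antisense gene ENSG00000267375. An anchor in introns of LINC-PINT and LINC00513 at chr7:130586836-130589421 had 30 and 20 counts, and one over an exon of LINC02964 at chr8:126690650-126693995 had 31 and 43. These 3 anchors had 19.3 to 22.7 summed counts per kb. NFE2L2 encodes the oxidative stress factor NRF2, and its intronic anchor at chr2:178105566-178109198 had 32 and 28 counts. A pair of anchors in introns of ACSL5, which encodes an acyl-CoA synthetase for long-chain fatty acids, had 36 and 35 counts and 22 and 19 counts. These 3 anchors had 15.3 to 16.5 summed counts per kb.

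SAP30BP, SLC39A11 and ARSG each held 1 further intronic anchor, all on chromosome 17. The SAP30BP anchor was the narrowest of the 20, with 10 and 9 counts in 1.25 kb and 6 MboI fragments, where 0.987 counts were the average for that number of fragments. Its interval, 9.12 to 23.6 summed counts per kb, was wide, and its place in the order is accordingly uncertain. The remaining 4 anchors overlapped no gene. The highest of these, at chr2:182675108-182678931, had 31 and 42 counts.

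**Figure D1:**
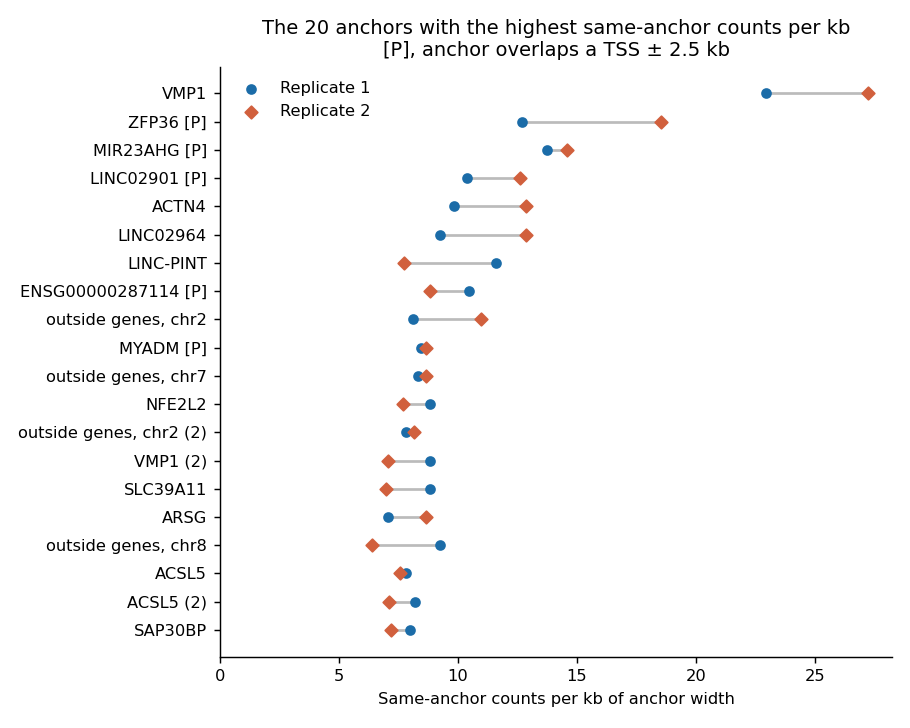
Same-anchor counts per kb (x axis) of the 20 anchors with the highest summed counts per kb (y axis), with circles for replicate 1 and diamonds for replicate 2 and a line joining them. [P] marks anchors that overlap a transcription start site ± 2.5 kb, and a number in brackets marks a further anchor of the same gene or chromosome. VMP1 is at 22.9 and 27.2 per kb, above both replicates of all others, and the replicates of the lower anchors interleave.

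By summed count rather than by count per kb, wide anchors led. After MIR23AHG came an anchor outside genes at chr9:21664319-21691157, with 99 counts in replicate 1 and 159 in replicate 2 over 26.8 kb and 52 MboI fragments. The next was at the promoter of BCL9L, a coactivator of β-catenin, at chr11:118776855-118802133, with 113 and 140 counts. It had 106 same-anchor counts per 100 counts with other anchors and 52 MboI fragments. Anchors with 31 fragments or more had 29.5 and 27.8 per 100 in replicates 1 and 2. Intronic anchors of PCDH7, a protocadherin gene on chromosome 4, took 2 of the 10 places, with 62 and 95 counts and 68 and 89 counts. Replicate 2 was higher in 9 of these 10 anchors, among them the VMP1 anchor of 3.97 kb and the ZFP36 anchor of 5.12 kb. The relation of the replicates to anchor width and to the deepest anchors is described below.

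The 2473 anchors of the deepest 1% had at least 3.85 summed counts per kb. They held 9.42 ± 0.497% (SD, n = 2) of the same-anchor counts in 1.23% of the anchor width. The last anchor inside the limit had 2 and 3 counts in 1.3 kb and the first outside had 6 and 12 counts. When the anchors were ranked in 1 replicate and counted in the other, the share was 7.27%, which is free of the selection on the same counts. Promoters made up 43.6% of the deepest anchors and 14.4% of all, and promoters of protein-coding genes 33.9% and 6.55%. The deepest anchors had a median GC content of 49.3% (all anchors, 40.9%), 18.4 CpG per kb (7.96) and 3.56 MboI fragments per kb (2.57). Counts with other anchors, which did not enter the ranking, were above the median of all anchors in 99.3% of them.

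The deepest anchors lay close together along the chromosomes. Of the 2473, 514 (20.8%) had another of them as the next anchor on the chromosome, while 1.91% of all anchors had one of them beside it. The 1-Mb window with the most was chr8:126000001-127000000, with 25 of 126 anchors, followed by chr17:73000001-74000000 with 23 of 119 and chr10:114000001-115000000, which holds ACSL5 and VTI1A, with 19 of 134. The counts were not normalized for copy number, and its part in these windows was not tested.

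Same-anchor counts moved with the number of MboI fragments. None of the 19 anchors with 1 fragment had a same-anchor count, and they had only 113 counts with other anchors. A count of 0 allows up to 2.65 same-anchor counts per 100 others there. Anchors with 2 fragments had 0.457 and 0.316 per 100 others in replicates 1 and 2, so the 0 shows no difference from them. If only pairs of different fragments were kept, the 0 was fixed in advance. Of 1867 anchors with 2 fragments, 3.32% had any same-anchor count, at 0.0088 and 0.0075 counts per kb in replicates 1 and 2. The rate was 0.154 and 0.148 per kb with 5 fragments, 0.42 and 0.419 with 10 and 0.581 and 0.598 with 20. Thus the local signal rose with every step shown and did so in both replicates. Among anchors of 2 to 3 kb, where width hardly varied, it rose from 0.0271 and 0.0279 per kb with 1 to 3 fragments to 1.13 and 1.04 with 13 or more. Counts with other anchors rose less over the same classes, from 1.97 to 4.84 per kb in replicate 1 and from 2.34 to 5.42 in replicate 2. Local signal is therefore also given below as observed over expected, where the expected count of an anchor is the average of all autosomal anchors with the same number of fragments.

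Anchors without local signal mostly had few fragments. The 81379 anchors without a same-anchor count had a median of 5 fragments and a median width of 2.07 kb, and 3.94% of them had 10 fragments or more. The anchor without a same-anchor count that had the most other counts was at chr1:145021748-145026805, in introns of PDE4DIP and the pseudogene PDE4DIPP2, with 36 and 49 counts with other anchors and 9 fragments. At 9 fragments the average was 2.46 summed same-anchor counts.

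The relation of the replicates to anchor width was not the same. Replicate 1 gave 52.7% of the same-anchor counts of anchors under 1.5 kb (95% Clopper-Pearson interval, 51.9 to 53.5%) and 48.1% of those of anchors of 10 kb or more (47.7 to 48.6%). The share fell from class to class over the 6 width classes. By rate, replicate 1 was at 0.306 and replicate 2 at 0.274 counts per kb in the narrowest class, and at 0.494 and 0.532 in the widest. Replicates also differed at the deepest 1% of anchors, which had a median width of 3475 bases. These anchors held 9.07% of the same-anchor counts of replicate 1 and 9.77% of those of replicate 2.

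For single anchors, the replicates were compared by a two-sided exact binomial test with Benjamini-Hochberg adjustment over the 10646 anchors with a summed count of at least 10. It called 0 anchors (0.0%) as different, the lowest adjusted p was 0.65, and 378 (3.55%) had an unadjusted p below 0.05. Over these anchors the chi-square per degree of freedom was 1.03 (p = 0.0241), so the replicates differed by little more than sampling noise. Since the shares of the narrowest and the widest class lay outside each other's intervals, the replicates were counted as 2 libraries. The same test of counts with other anchors called 0 of 201865 (0.0%), with 7769 at an unadjusted p below 0.05. The test compares the 2 libraries and not conditions, and most anchors had too few counts for a moderate difference to pass.

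Promoters had more local signal than other anchors. A promoter anchor was one that overlapped the start site of the canonical transcript of any gene ± 2.5 kb. The 35520 promoter anchors had 0.53 counts per kb in replicate 1 and 0.552 in replicate 2 (0.541 ± 0.0157, SD, n = 2). The 211736 other anchors had 0.343 and 0.339 (0.341 ± 0.00304). The ratio was 1.59 ± 0.0602, and the difference was larger than the spread between replicates. With 2 libraries of 1 condition no test of this ratio was run. Promoters thus took 23.9% of the same-anchor counts in 16.5% of the anchor width.

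Among promoters, those of protein-coding genes were highest, at 0.651 and 0.69 counts per kb. Promoters of long non-coding RNA genes without a protein-coding start had 0.458 and 0.47, and those of other gene classes had 0.367 in each replicate. Anchors inside protein-coding genes had 0.362 and 0.36 per kb, those inside other genes had 0.32 and 0.312, and anchors outside genes had 0.323 and 0.316. The last 2 classes overlapped between replicates, and the other 4 were apart from them and from each other, with the smallest gap between promoters of the other gene classes and the bodies of protein-coding genes. Per MboI fragment this order was reversed. The promoters of the other gene classes had 0.1389 and 0.1388 counts per fragment, and the bodies of protein-coding genes had 0.1398 and 0.1391.

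The promoter difference was also present at equal numbers of fragments. Against non-promoter anchors with the same number of MboI fragments, promoters had 1.49 ± 0.0486 times the counts. In each of the 25 numbers of fragments with at least 100 anchors of both kinds, promoters had more counts per kb in both replicates, with ratios from 1.25 to 1.56. The same held on all 22 autosomes, from 1.33 on chromosome 15 to 1.83 on chromosome 19. Promoters also had more counts with other anchors, but the excess was smaller, at 3.36 against 2.87 per kb in replicate 1 and 3.92 against 3.30 in replicate 2. Same-anchor counts per 100 others were accordingly 15.8 and 14.1 at promoters and 12 and 10.3 elsewhere.

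**Figure D2:**
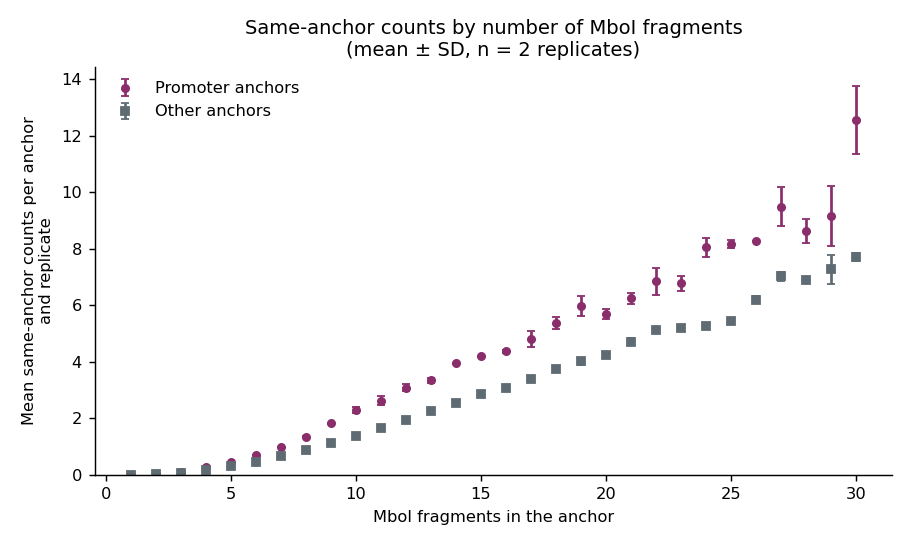
Mean same-anchor counts per anchor and replicate (y axis) against the number of MboI fragments in the anchor (x axis), for promoter anchors (circles) and other anchors (squares). Error bars are the SD of 2 replicates. Counts rise with the number of fragments in both groups, and at 10 fragments promoters are at 2.29 and other anchors at 1.38.

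CpG content moved with the local signal of promoters. With promoters split into 4 classes of equal size by CpG, the local signal in the class with the fewest (up to 7.69 CpG per kb) was 0.321 ± 0.00176 per kb, and in the class with the most (29.2 or more) it was 0.778 ± 0.0419. Other anchors within the same CpG limits had 0.279 ± 0.00344 and 0.482 ± 0.0173. Promoters were above other anchors in each of the 4 classes and in both replicates. Fragments per kb were close in the lowest and the highest class of promoters, at 2.38 and 2.35. The number of fragments per anchor, with which local signal moved, was not compared between these classes. The part of base composition in the counts was not tested.

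Promoters of named gene groups are given as summed counts per kb of the anchor that holds the start site or lies within 2.5 kb of it. Of 18971 autosomal protein-coding genes, 16076 had such an anchor, with a median of 0.926. The groups were described by their medians and by how many genes lay above that value, and counts of single genes were often below 10.

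Genes of cytosolic ribosomal proteins, which are transcribed in every growing cell, had the highest median of the groups, 2.87, with 16 of 20 above the median of all genes. RPL23 was the highest, with 24 and 28 counts at chr17:37008949-37012403, or 15.1 per kb. RPL30 followed with 13 and 13 counts, RPLP0 with 12 and 10 and RPS2 with 16 and 8. RPL5 had 1 and 2 counts and RPL11 none, in an anchor of 3 fragments. The group held 4.30 times the counts expected from its MboI fragments, compared with 1.79 for all protein-coding genes.

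Immediate-early genes, which respond within minutes to growth signals, had a median of 2.07, and all 15 with an anchor were above the median of all genes and had counts in both replicates. EGR1, a zinc finger factor, had 19 and 21 counts at chr5:137798979-137802891, or 10.2 per kb. The AP-1 subunit gene FOSL1 had 9 and 11 counts at chr11:65666333-65668457 in an anchor of only 5 fragments, which was 30.7 times the average for that number. FOSB had 9 and 6 counts and FOS 6 and 14. MYC, with 6 and 1, and JUN, with 2 and 4, were the lowest. Over the group, counts were 4.05 times those expected from the fragments, a ratio close to that of the ribosomal protein genes.

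Targets of p53, the tumour suppressor that is wild type in HCT116, had a median of 1.67, with 14 of 17 above the median of all genes. BBC3, which encodes the apoptosis protein PUMA, was the highest with 6 and 8 counts, followed by FDXR with 7 and 8, BAX with 6 and 7 and PLK3 with 6 and 5. ZMAT3 had 1 and 0 counts and SESN2 had none. WNT targets had a median of 1.24, with 9 of 12 above. RNF43, a negative regulator of WNT receptors, had 3 and 5 counts, CCND1, the gene of cyclin D1, had 13 and 14, ZNRF3 had 4 and 3 and TCF7 had 2 and 5. LGR5, in an anchor of 4 fragments, and SP5, in one of 5, had none.

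Of 18 markers of colorectal epithelium, 16 had an anchor (not CLDN3 and FABP1). They had a median of 1.26, with 10 of 16 above the median of all genes. The keratin genes KRT19, with 12 and 21 counts, and KRT8, with 14 and 16, were the highest, followed by the tight junction gene CLDN7 with 13 and 14 and the epithelial factor gene ELF3 with 8 and 10. CDH17, GPA33 and HNF4A had no same-anchor count, in anchors of 2, 4 and 7 fragments. EPCAM and CDH1, defining epithelial genes, had 0 counts in replicate 1 and 1 in replicate 2. The epithelial anchors held 2.39 times the counts expected from their fragments. Markers of other cell types had medians of 1.05 for muscle (4 of 6 above the median of all genes), 1.02 for fibroblasts (5 of 9), 0.872 for neurons (2 of 5), 0.753 for haematopoietic cells (4 of 9) and 0.136 for endothelium (0 of 4). Against the expectation from fragments they stood at 1.06, 1.27, 2.22, 1.27 and 0.51 in the same order, and the start site itself lay in the anchor for 9 of the 16 epithelial and 1 of the 6 muscle genes. The highest of these was SLC17A7, with 11 and 14 counts in an anchor of 25 fragments on chromosome 19, followed by TUBB3 with 6 and 4. The endothelial genes had 3 counts in replicate 1 and none in replicate 2. Single genes of the lists overlapped, the epithelial and neuronal lists were close against the expectation from fragments, and no test of the lists was run.

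Olfactory receptor genes, which are used in the nasal epithelium, had a median of 0.482, and 38 of 183 were above the median of all protein-coding genes. Their median was close to that of all autosomal anchors, 0.478. Of 388 listed genes, 183 had an anchor, and the start site itself lay in the anchor for 91. Their anchors held 0.700 times the counts expected from their fragments. The highest, OR9I1, had 2 and 7 counts. The 5 genes whose loops the study described on these samples, and which are therefore no independent set, had a median of 2.45, from ITGB4 with 5 and 1 counts to GALK1 with 9 and 17. Genes that the study linked to super enhancers had a median of 2.05. ID1, an inhibitor of helix-loop-helix factors, had 20 and 23 counts at chr20:30191022-30194999, or 10.8 per kb, and BMP4 had 6 and 9. FOXA1 had 2 and 2 counts, and LIF had none in an anchor of 2 fragments that had 27 counts with other anchors.

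**Figure D3:**
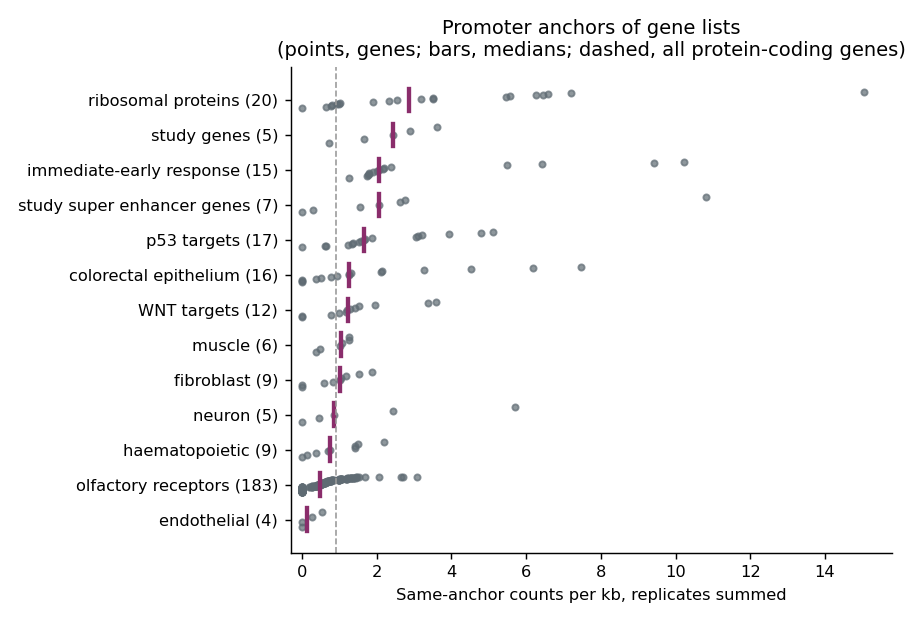
Same-anchor counts per kb, summed over both replicates (x axis), of the promoter anchors of each gene list (y axis, with the number of genes that have an anchor). Points are genes, bars are medians and the dashed line is the median of all protein-coding genes, 0.926. Ribosomal protein and immediate-early genes lie to the right, and olfactory receptor and endothelial genes to the left.

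Chromosomes differed in local signal. Chromosome 19 was highest, with 0.67 counts per kb in replicate 1 and 0.703 in replicate 2 (0.687 ± 0.0233, SD, n = 2), followed by chromosome 17 with 0.631 and 0.643. Chromosomes 22 and 16 came next at 0.479 ± 0.00666 and 0.478 ± 0.0092 and did not differ beyond their spread. Chromosomes 10 (0.42 ± 0.000529) and 8 (0.414 ± 0.00313) followed. Chromosome 4 was lowest, with 0.299 and 0.301 (0.3 ± 0.000931), next to chromosome 13 with 0.307 ± 0.00298. From the summed counts, the highest chromosome had 2.29 times the local signal of the lowest.

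The order at the top changed when fragments were taken into account. Against the count expected from the number of fragments, chromosome 17 stood at 1.51 ± 0.0187 and chromosome 19 at 1.47 ± 0.0512, which overlap within their spread. Chromosomes 4 and 13 stood at 0.844 and 0.843, and the range from highest to lowest was 1.80-fold. On chromosome 19, 34.2% of the anchors were promoters and there were 3.14 fragments per kb, compared with 9.74% and 2.42 on chromosome 4. On chromosome 17, 22.6% of the anchors were promoters and there were 2.81 fragments per kb. Among non-promoter anchors only, chromosome 17 was the highest and the range was 1.99-fold. Chromosomes 17 and 19 held 331 and 261 of the 2473 deepest anchors.

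Across the 22 autosomes, local signal moved with the share of promoters (Pearson 0.890, Spearman 0.761), fragments per kb (0.911 and 0.842), median GC content (0.870 and 0.899) and counts with other anchors per kb (0.855 and 0.910). These values describe 22 points that share both libraries, and the measures also move with each other. Their separate parts in the chromosome differences were not tested, nor was that of copy number, for which the counts were not normalized.

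Within chromosomes, local signal was uneven in the 273 bins of 10 Mb. The highest bin against the expectation from fragments was chr17:70000001-80000000, at 2.10 ± 0.0212, and chr8:140000001-150000000 and chr17:40000001-50000000 followed at 1.69 each. The next was chr10:100000001-110000000, at 1.65. The lowest was chr13:80000001-90000000, at 0.568 ± 0.0167. In the first of these bins counts with other anchors were also high, at 6.38 and 7.43 per kb, and in the last they were 0.903 and 0.901. The counts were not normalized for copy number, and its part in the differences between bins was not tested.

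**Figure D4:**
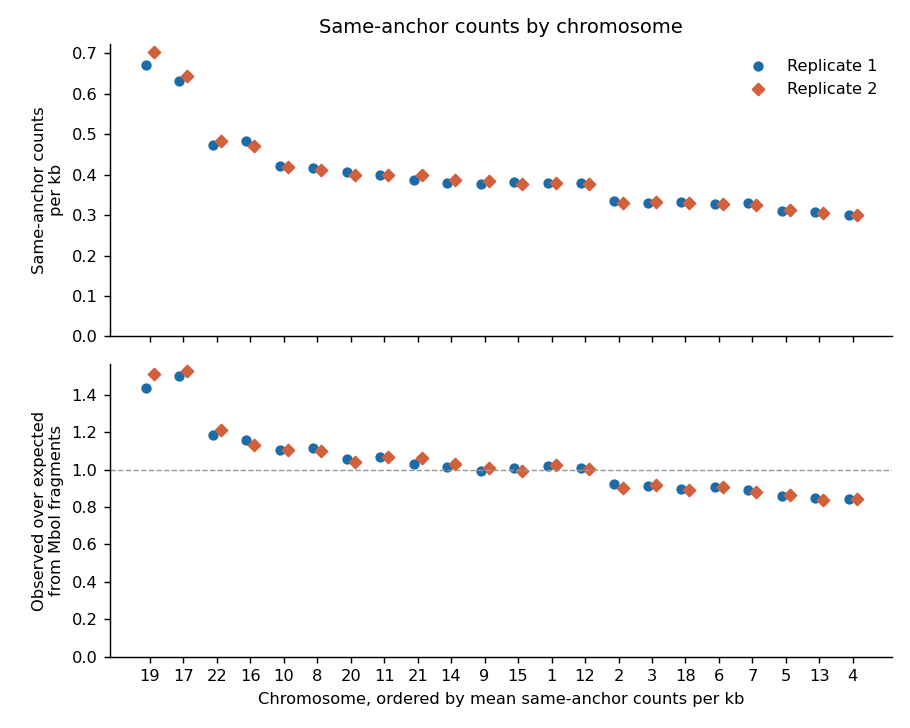
Same-anchor counts per kb (upper panel, y axis) and observed over expected counts from the number of MboI fragments (lower panel, y axis) for each autosome (x axis, in the order of the upper panel), with circles for replicate 1 and diamonds for replicate 2. Chromosomes 19 and 17 lie above all others in both panels, and chromosome 17 reaches chromosome 19 in the lower one.

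Anchors with more counts to other anchors had more same-anchor counts. Across all 247256 autosomal anchors the Spearman correlation of both values per kb was 0.342 and the Pearson correlation 0.505. The points share the libraries and their MboI fragments, and most hold few counts. In single replicates the Spearman correlation was 0.249 and 0.246. The same-anchor counts of replicate 1 correlated at 0.251 with the other counts of replicate 2 and at 0.356 with the same-anchor counts of replicate 2. The relation was stronger at promoters (0.459) than at other anchors (0.315), as a description without a test. Promoters also held more counts, with a same-anchor count in 76.1% of them and in 65.6% of the others. The part of counting error in the difference was not tested.

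In 10 classes of equal size by counts with other anchors per kb, local signal rose from 0.168 and 0.162 per kb in the lowest class to 1.01 and 1.05 in the highest. It rose at each step in both replicates. Relative to the expectation from fragments it rose from 0.633 to 2.12. The step was largest between class 9, at 1.27, and the highest. MboI fragments per kb rose along the same classes, from 2.05 to 3.39.

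**Figure D5:**
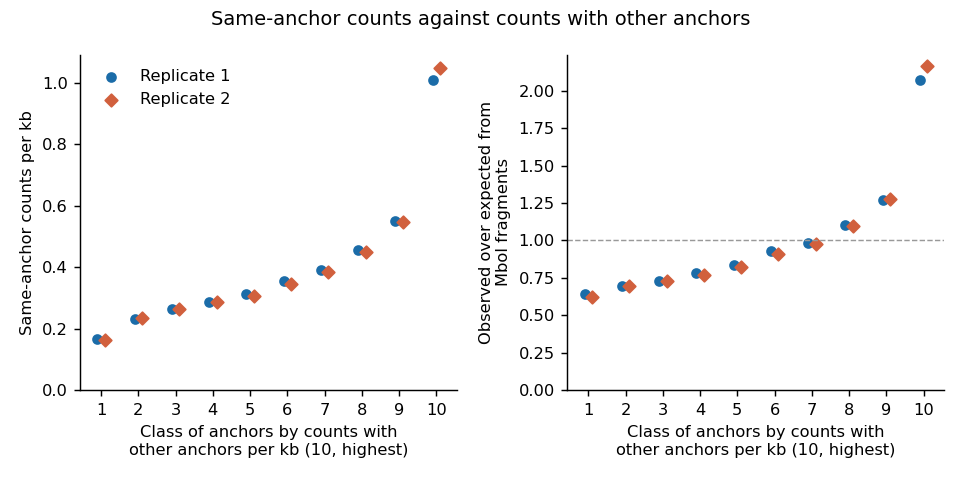
Same-anchor counts per kb (left panel, y axis) and observed over expected counts from the number of MboI fragments (right panel, y axis) for 10 equal classes of anchors ordered by counts with other anchors per kb (x axis, 10 is the highest), with circles for replicate 1 and diamonds for replicate 2. Both rise along the classes, and the highest class is at 2.07 and 2.16 in the right panel.

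Anchors differed in the ratio of same-anchor counts to counts with other anchors. Among the 173 anchors with at least 50 summed same-anchor counts, the median was 33.2 same-anchor counts per 100 others, and 74 (42.8%) were promoter anchors, as were 7 of the 8 with the highest ratios. These anchors were chosen on their same-anchor counts and after their values were seen. After ZFP36 and BCL9L came MYADM with 93.9 same-anchor counts per 100 others, MIR23AHG with 78.7 and TNRC18 with 71.3. The lowest ratios were in introns of PCDH7 on chromosome 4 and of VTI1A, a SNARE protein gene, on chromosome 10. The PCDH7 anchor at chr4:30769841-30776694 had 24 and 48 same-anchor counts and 223 and 307 counts with other anchors, or 13.6 per 100. The VTI1A anchor at chr10:114274272-114281082 had 29 and 43 against 228 and 285, or 14.0 per 100. The ZFP36 anchor had 27 MboI fragments and these anchors had 15 and 19, and the part of the fragments in the difference was not tested.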

How the data were processed

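H3K27ac HiChIP was measured in 2 replicates of HCT116. The authors digested chromatin with MboI, sequenced paired ends, mapped and filtered the pairs with HiC-Pro and called interactions with hichipper on hg19 (per the labels and the methods). Versions, the definition of anchors and the treatment of duplicates are not given in the sources used here. The deposited values are raw counts of paired-end tags for each pair of anchors of 1 chromosome, without normalization for depth, fragment number or copy number. Whether same-anchor rows hold unligated or self-ligated fragments is not stated, and counts per kb moved with the number of MboI fragments of an anchor.

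From these counts, same-anchor rows of the 22 autosomes were summed over replicates and divided by anchor width, with absent rows as 0. Counts with other anchors were taken up to 2 Mb between midpoints, and each such tag counted for both of its anchors. Genes came from GENCODE 44 on GRCh37, with a promoter window of 2.5 kb around canonical start sites. The reference genome was GRCh37, whose GATC sites matched the anchor edges. Expected counts were averages of autosomal anchors with the same number of fragments, with 40 or more as 1 class. An anchor was named by genes whose start it holds, then by start sites within 2.5 kb, then by gene bodies. Replicates were compared by an exact binomial test with Benjamini-Hochberg adjustment at 0.05. It was run on simulated data drawn from the binomial distribution that the test assumes. That run could therefore not show how the test behaves under extra spread between libraries. Depth was 1885481 and 2131466 counts, and intervals are 95%.

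The members, gene lists and rules were chosen with earlier results of these data known. The anchors named are the 20 highest per kb, the 10 highest by count, the 10 highest per kb without a promoter, and in each gene list the 4 highest and 2 lowest genes, with sequences of 4 promoter and 3 other deep anchors, none from chromosome 8. Of these sequences 2 are shown, and the others are not reported here. Anchors named for their ratio or for lacking a same-anchor count, the 1-fragment sequence and the other genes of lists were chosen after their values were seen. Alternatives were each replicate alone, promoter definitions, rates per fragment, standardisation, exclusion of the deepest anchors, distance limits and count minimums. Python 3.11.15, numpy 2.4.6, pandas 2.3.3, scipy 1.17.1, pysam 0.24.0 and matplotlib 3.10.9 were used.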

Additional observations from a re-analysis of the deposited data

How the results depend on the processing

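No paired analysis was possible because both samples are replicates of 1 condition. The ratio of promoters to other anchors stayed above 1 under all alternatives run. It was 1.68 with a promoter window of 1 kb, 1.92 with protein-coding genes only, 1.66 per MboI fragment, 1.5 when standardised over width classes, 1.41 without anchors that lack a same-anchor count and 1.42 without the deepest 1%. Among alternatives chosen after seeing the data it was 1.49 when standardised over fragments, 1.49 over width and fragments, and 1.55 without chromosomes 8, 10, 17 and 19. With 1 replicate left out it ranged from 1.55 to 1.63. The range between chromosomes was 1.87 per fragment, 1.84 without the deepest 1% and 1.99 at non-promoter anchors, and 1.80 against the expectation from fragments, which was added later. It was 2.24 to 2.34 in single replicates. Chromosome 19 was the highest in the range as reported and chromosome 17 under these 4 alternatives. The rank correlation with other counts was 0.354 over all distances, 0.343 with partners over 20 kb away, 0.621 for raw counts, 0.424 in anchors of 2 to 3 kb, 0.4998 in anchors of 10 fragments (added later) and 0.246 to 0.249 in single replicates. The share of the deepest 1% was 8.91 to 9.97% when ranked and counted in 1 replicate, 10.4% when ranked per fragment and 7.27% when ranked in 1 replicate and counted in the other. The replicate test called 0 anchors under all 4 alternatives, with 90 of 2003, 1243 of 165877, 406 and 415 of 10646 at an unadjusted p below 0.05. Depth limits single anchors, since 4.31% reached 10 counts.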
